A study of Mus musculus with 24 samples.

Results

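The genes described here are 8 serotonin receptor and metabolism genes in mouse tumours. The members are the receptors Htr1b, Htr1d, Htr2a, Htr2b and Htr7, the synthetic enzyme Tph1, the breakdown enzyme Maoa and the transporter Slc6a4. They were taken as the probe sets whose platform gene symbol was one of these names, which gave 8 probe sets of 22206 in the deposited table, or 8 of the 19505 genes with a symbol. Htr1b was put on the list with its values in view, because it was well expressed and higher with BMS754807 alone. Its BMS754807 values are therefore a description without a test.

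The 24 samples were tumours of a study on blocking the insulin-like growth factor 1 and insulin receptors and autophagy in pancreatic ductal adenocarcinoma, an epithelial cancer of the pancreas. Of the 4 groups of 6 tumours, the combination received BMS754807 and hydroxychloroquine together, 1 group received BMS754807 alone, 1 received hydroxychloroquine alone, and the control is labelled as treated with vector. BMS754807 is a small molecule that inhibits the kinases of both receptors, and hydroxychloroquine is a lysosomotropic drug that raises lysosomal pH and blocks the last step of autophagy. RNA of each tumour was hybridised to a Clariom S array, which gives 1 signal per probe set, and values below are log2 signal. The labels used here give no strain, sex, age, tumour site, dose or treatment time, and leave open whether the tumours of a group are from different mice. Errors and p-values therefore measure only the spread between these samples, which may be technical. Each 1 unit of log2 is a doubling, and signals of different genes are not compared because probes differ in how well they bind.

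Serotonin is made from tryptophan by hydroxylation and then decarboxylation, is stored in vesicles, acts on cell surface receptors, and is cleared by reuptake and oxidation. Outside the nervous system most of it comes from enterochromaffin cells of the gut and is carried in blood by platelets, which take it up through the transporter. All receptors on the list are coupled to G proteins, and they differ in the G protein they use, so that the same transmitter can lower cyclic AMP, raise cyclic AMP or release calcium. In the pancreas serotonin is known as a product of beta cells during pregnancy in mice, and in blood vessels it acts on smooth muscle.

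The promoter sequences shown are the 250 bases before the annotated start of Htr2a and Htr2b, because the signals of these receptors varied together over the tumours. They were taken from RefSeq on GRCm38.p6, read 5′ to 3′ on the strand of the gene, and all 8 members matched an entry. The Htr2a window lies on the plus strand at chr14:74640624-74640873, and the Htr2b window lies on the minus strand at chr1:86111981-86112230. Capitals mark matches to the motifs searched.
Htr2a: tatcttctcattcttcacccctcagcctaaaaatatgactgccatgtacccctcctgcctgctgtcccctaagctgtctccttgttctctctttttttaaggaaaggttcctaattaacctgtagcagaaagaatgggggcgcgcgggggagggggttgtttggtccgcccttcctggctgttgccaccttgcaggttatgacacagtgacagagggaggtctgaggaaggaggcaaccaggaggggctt
Htr2b: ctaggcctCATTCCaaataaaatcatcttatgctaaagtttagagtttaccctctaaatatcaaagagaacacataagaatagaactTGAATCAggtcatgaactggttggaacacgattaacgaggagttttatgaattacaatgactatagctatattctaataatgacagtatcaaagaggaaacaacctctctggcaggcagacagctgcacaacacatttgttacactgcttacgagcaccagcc
The Htr2b window held the TEAD motif GGAATG on the opposite strand, written CATTCC, and the AP-1 motif TGANTCA, and these did not overlap. Both strands were searched, also for the FOXO motif GTAAACA, the TATA motif TATAAA and the CArG box, and the Htr2a window held none of the 5. The TEAD motif was in 12.6% of 32851 such windows, the AP-1 motif in 6.75%, the TATA motif in 12.4%, the FOXO motif in 3.17% and the CArG box in 1.47%. The TEAD motif was also in 1 window each of Htr1d, Tph1 and Slc6a4. A match describes letters and says nothing of binding.

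Precision is limited by the number of arrays. Array medians lay between 6.79 and 7.03, and across genes the correlation between arrays was 0.975 to 0.994. In limma, 0 of 19505 genes passed an adjusted p of 0.05 in any comparison. Since the table gives no detection call, signals were set beside the 95th percentile of the mean signals of 1091 olfactory receptor genes, 4.32, as the level of genes with little RNA in tumours. The epithelial marker list had 10 of 10 genes above that level, against 1 of 8 neuroendocrine and islet genes and 2 of 8 acinar genes. The neuroendocrine gene above it was Sst, while Chga, Chgb and Ins2 were below it. By the score of their skeletal muscle genes, 5 tumours stood apart as rich in muscle. They were hydroxychloroquine tumour 5, combination tumour 1, BMS754807 tumours 2 and 6 and control tumour 5. In bulk tumours, fewer cells of a type and less RNA per cell cannot be told apart.

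Of the 8 members, 6 had a mean signal above the olfactory receptor level over the 24 tumours. Htr1b, Htr2a, Htr2b and Maoa were above it in all 24 tumours, Tph1 in 22 and Htr1d in 19. Htr7 was above it in 1 tumour and Slc6a4 in 0, so differences of these genes lie in the range where little RNA is likely. The signal also depends on the probes, and a low signal does not show that a transcript was missing.

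Htr1b encodes a receptor that lowers cyclic AMP through inhibitory G proteins and is known in the brain as an autoreceptor on serotonin neurons. In BMS754807 tumours its lowest, median and highest log2 signals were 10.82, 11.79 and 12.41. They were 10.78, 10.98 and 11.28 in combination tumours, 10.52, 10.93 and 11.21 in hydroxychloroquine tumours and 10.76, 10.92 and 11.16 in control tumours. The signals of BMS754807 tumours 2, 3, 4, 5 and 6 were 11.84, 12.09, 11.69, 12.41 and 11.73, and all 5 lay above each of the 18 tumours of the other groups, which spanned 10.52 to 11.28. BMS754807 tumour 1, at 10.82, lay among the others, so the BMS754807 and control groups overlapped. Of those 18 tumours, 5 were at or below it.

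**Figure D1:**
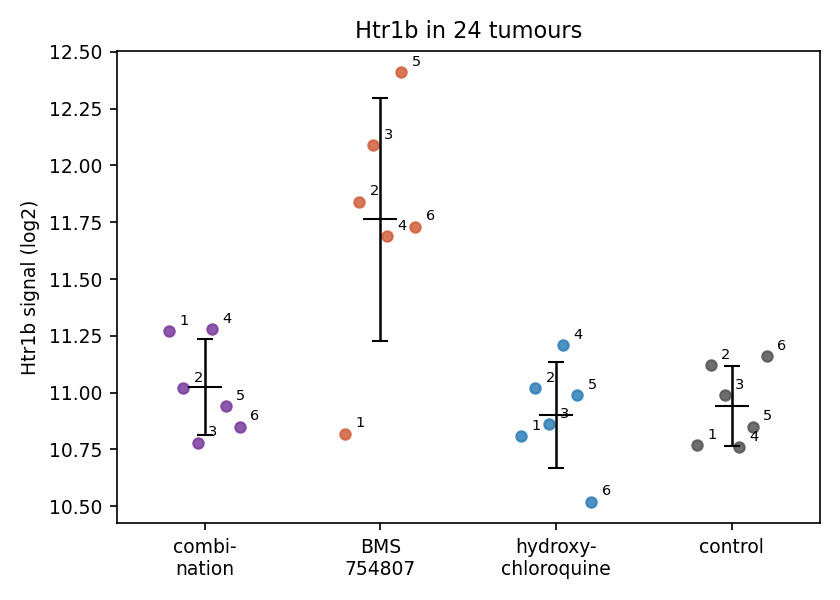
Htr1b log2 signal in each of the 24 tumours, with numbers giving the replicate and black bars the mean ± SD of 6 tumours per group. BMS754807 tumours 2 to 6 sit between 11.69 and 12.41, above all 18 other tumours, and BMS754807 tumour 1 sits at 10.82 among them.

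The mean of Htr1b was 11.76 ± 0.53 in BMS754807 tumours, against 10.94 ± 0.17 in control tumours (SD, n = 6 each). The difference was 0.82 ± 0.18 log2 (SE), a 1.77-fold higher mean, and 5 of 6 BMS754807 tumours were above the control mean. In this comparison 0% of the 19505 genes passed the adjusted threshold and 5.88% had an unadjusted p under 0.05 in limma, and nothing is read from this for Htr1b because the rule used the contrast. With each array left out in turn the difference ran from 0.69 to 1.01, and the highest value, 1.01 ± 0.15, was without BMS754807 tumour 1. Without the 5 muscle-rich tumours it was 0.79.

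Htr1b in the other treated groups had means close to control. The mean was 11.02 ± 0.21 in combination tumours and 10.90 ± 0.23 in hydroxychloroquine tumours (SD, n = 6 each). Set against BMS754807 alone, combination tumours had a mean 0.74 log2 lower, and set against control they had a mean 0.08 higher. Hydroxychloroquine tumours had a mean 0.04 lower than control. These comparisons share groups with the contrast the rule used and are given as values.

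The effect of BMS754807 in the presence of hydroxychloroquine rests on 12 tumours outside the contrast the rule used, and it was tested. Htr1b was chosen as well expressed and higher with BMS754807 alone, so the values of these 12 tumours may also have been in view. The test is therefore not fully independent of the choice of Htr1b. Combination tumours had a mean of Htr1b that was 0.12 ± 0.18 log2 higher than hydroxychloroquine tumours (SE, 95% interval -0.26 to 0.50), with a limma adjusted p of 0.954 and an exact two-sided permutation p of 0.381 (n = 6 each). The signals of the groups overlapped, and 4 of 6 combination tumours were above the hydroxychloroquine mean. The change in the BMS754807 difference between tumours with and without hydroxychloroquine, the interaction, was -0.70 ± 0.26 log2 (SE), as a value without a test because it holds the contrast the rule used.

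Within groups, the genes whose signals varied most like Htr1b were Znrd1, Mavs, Ubtd1, Zc3h18 and Kat8. They were picked by the correlation of deviations from the group mean over the 24 tumours among 12501 genes, with r of 0.69 for Znrd1, 0.66 for Mavs, 0.64 for Ubtd1, 0.64 for Zc3h18 and 0.62 for Kat8. Over the plain signals r was 0.44, 0.42, 0.66, 0.48 and 0.40 for these genes in the same order. Such highest values were selected from many genes and carry no test. Cell type marker scores, 12 in all, were each the mean deviation of a list's genes from their mean over the tumours. Over the plain values, group differences included, the mast cell score had the largest correlation with Htr1b. Its r was -0.49 and its rho -0.31 over 24 tumours, given as a description because these tumours include those by which Htr1b was chosen. That r was -0.11 without the 2 tumours farthest from the median score. Within groups it was 0.68 in combination, -0.38 in BMS754807, -0.71 in hydroxychloroquine and -0.64 in control tumours. With group means removed r was -0.296 for the mast cell score and -0.444 for the epithelial score, the largest of the 12 by that measure. For the epithelial score r was -0.527 in combination, -0.585 in BMS754807, -0.55 in hydroxychloroquine and 0.338 in control tumours.

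The mast cell list had 8 of 10 genes above the olfactory receptor level. Its score lay between -0.39 and 0.31 in combination tumours, between -0.74 and 0.38 in BMS754807 tumours, between -0.30 and 0.32 in hydroxychloroquine tumours and between 0.0076 and 0.50 in control tumours. The part of mast cells or epithelial cells in the Htr1b signal was not tested.

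Htr1d encodes the other receptor on the list that acts through inhibitory G proteins. Its lowest, median and highest signals were 4.16, 4.53 and 5.59 in combination tumours, 3.98, 4.60 and 5.49 in BMS754807 tumours, 4.24, 5.34 and 5.98 in hydroxychloroquine tumours and 4.34, 5.04 and 5.98 in control tumours. All 4 groups overlapped and each held tumours close to the olfactory receptor level. The combination mean was 0.43 ± 0.33 log2 lower than the hydroxychloroquine mean (SE, limma adjusted p = 0.905), and the BMS754807 mean was likewise 0.43 lower than the control mean, a value without a test. The SD within the groups was 0.55 to 0.71, larger than these differences.

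Htr2a and Htr2b encode receptors that act through Gq and phospholipase C to release calcium, and both are known in vascular smooth muscle. The lowest, median and highest signals of Htr2a were 5.49, 7.08 and 7.24 in combination tumours and 6.05, 6.96 and 7.70 in BMS754807 tumours. They were 5.81, 6.69 and 7.97 in hydroxychloroquine tumours and 5.61, 6.34 and 8.53 in control tumours. The spread within each group was wider than any difference between group means, since the highest mean was 6.88 ± 0.56 in BMS754807 tumours and the lowest 6.64 ± 1.05 in control tumours (SD, n = 6 each). No order of the groups can be read from Htr2a.

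The lowest, median and highest signals of Htr2b were 5.89, 6.03 and 6.61 in combination tumours and 5.56, 6.32 and 7.08 in BMS754807 tumours. They were 5.69, 6.09 and 8.08 in hydroxychloroquine tumours and 5.41, 5.55 and 6.31 in control tumours. Control tumours had the lowest median, and all groups overlapped. The combination mean was 6.14 ± 0.29, the BMS754807 mean 6.23 ± 0.53, the hydroxychloroquine mean 6.47 ± 0.94 and the control mean 5.75 ± 0.42 (SD, n = 6 each).

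The hydroxychloroquine mean of Htr2b was 0.72 ± 0.32 log2 above the control mean (SE, 95% interval 0.048 to 1.39), with 5 of 6 tumours above it. The unadjusted limma p was 0.0369 and the adjusted p 0.979, and an exact permutation test gave p = 0.123, so the difference did not pass. Much of it lay in hydroxychloroquine tumour 4, at 8.08, and without that tumour the difference was 0.40. All 6 combination tumours were above the control mean, with a difference of 0.39 ± 0.32 (SE, limma adjusted p = 0.953). The BMS754807 mean was 0.48 above control, as a value without a test.

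**Figure D2:**
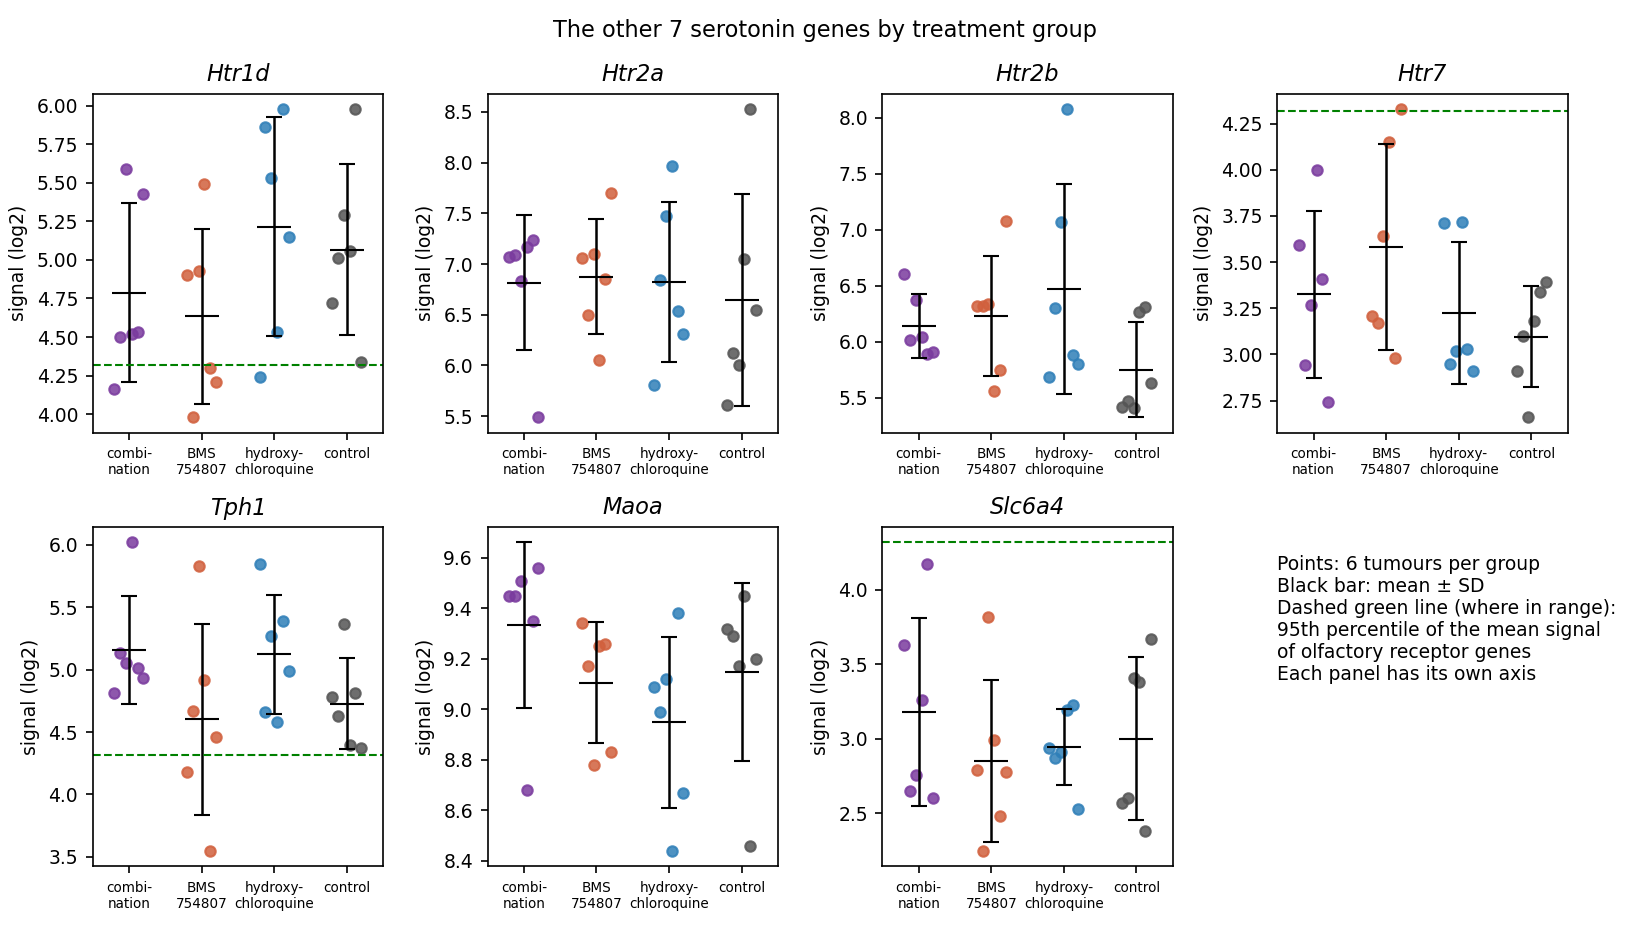
Log2 signal of the other 7 genes in each tumour, 6 per group, with black bars for the mean ± SD and, where in range, a dashed line at the 95th percentile of olfactory receptor means (4.32). Groups overlap for every gene, and Htr7 and Slc6a4 lie at or under the dashed line apart from 1 Htr7 value.

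The signals of Htr2b and Htr2a varied together over the tumours. Pearson's r was 0.716 over 24 tumours (permutation p = 9e-05, adjusted 0.00252 over 28 pairs of members) and Spearman's rho was 0.726 (permutation p = 0.00013, adjusted 0.00364). With group means removed r was 0.75, and without the 2 tumours farthest from the median of Htr2a it was 0.839. Within groups r was 0.265 in combination, 0.845 in BMS754807, 0.957 in hydroxychloroquine and 0.893 in control tumours (n = 6 each). This was the only one of the 21 pairs without Htr1b past an adjusted p of 0.05. The combination value is low beside the others, and that difference was not tested.

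Both receptors also varied with the smooth muscle and pericyte markers, of which 10 of 10 measured genes were above the olfactory receptor level. For Htr2a, r with that score was 0.705 and rho 0.646 (permutation, adjusted p = 0.00624 and 0.0355 over 96 relations, n = 24). For Htr2b, r was 0.694 and rho 0.717 (permutation, adjusted p = 0.00624 and 0.0096, n = 24). Without the 2 tumours farthest from the median score, r was 0.623 for Htr2a and 0.561 for Htr2b. Of the 5 highest scores, 4 were of muscle-rich tumours, and Des, an intermediate filament gene also of skeletal muscle, ran between 4.91 and 14.3. With Des left out of the list, r was 0.752 for Htr2a and 0.750 for Htr2b, and with the 5 muscle-rich tumours left out instead it was 0.741 and 0.789 (n = 19). Htr2a was also related to the fibroblast score, with r of 0.658 and rho of 0.636 (permutation, adjusted p = 0.0096 and 0.0362, n = 24). Of the 84 relations of the members other than Htr1b, these were the 3 past the threshold by both measures, and 3 others passed by Pearson's r only, with rho short of it. They were Htr2a with the endothelial score (r 0.667, rho 0.416), Htr2b with the fibroblast score (r 0.629, rho 0.48) and Maoa with the endothelial score (r -0.593, rho -0.38).

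The smooth muscle and pericyte score lay between -0.51 and 0.49 in combination tumours, between -0.62 and 0.86 in BMS754807 tumours, between -0.39 and 0.75 in hydroxychloroquine tumours and between -0.60 and 0.67 in control tumours. Its mean was 0.18 ± 0.45 in hydroxychloroquine and -0.22 ± 0.50 in control tumours (SD, n = 6 each). With the score as a covariate the difference of Htr2b between hydroxychloroquine and control was 0.37 ± 0.27 log2 (SE). With the score without Des it was 0.42 ± 0.24, and with the fibroblast score, chosen after seeing the data, it was 0.52 ± 0.27 (SE). The endothelial score had an r of 0.518 with Htr2b. Its mean was 0.018 ± 0.64 in hydroxychloroquine and 0.12 ± 0.81 in control tumours (SD), the opposite order to the smooth muscle and pericyte score. The part of any cell type in the Htr2b difference was not tested.

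**Figure D3:**
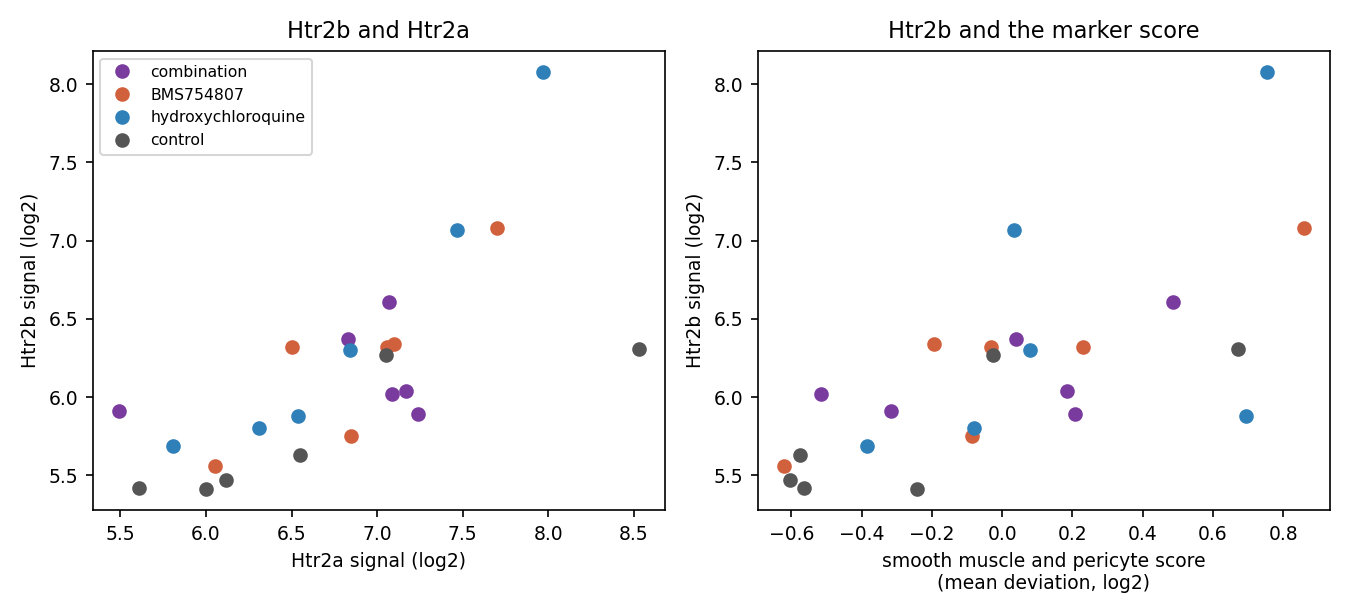
Htr2b log2 signal in 24 tumours against Htr2a log2 signal (left) and against the smooth muscle and pericyte score in log2 (right), with each point a tumour coloured by group. Htr2b is higher where Htr2a is higher (r = 0.716) and where the score is higher (r = 0.694), and the hydroxychloroquine tumour at 8.08 is the highest Htr2b value.

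The genes most like Htr2a in deviations from the group mean were Lox, Fermt2 and Mest, each with r of 0.86, and those most like Htr2b were Col16a1, Tram2 and Fndc1, with r of 0.84, 0.83 and 0.81. Lox encodes the enzyme that crosslinks collagen and Col16a1 a collagen chain. For Htr1d they were Lpp, Mbd6 and Rnf25 at 0.73, 0.71 and 0.70. These are the highest values among 12501 genes over 24 tumours, without a test.

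Htr7 encodes a receptor that raises cyclic AMP through stimulatory G proteins. Its lowest, median and highest signals were 2.74, 3.34 and 4.00 in combination tumours and 2.98, 3.43 and 4.33 in BMS754807 tumours. They were 2.91, 3.03 and 3.72 in hydroxychloroquine tumours and 2.66, 3.14 and 3.39 in control tumours. The BMS754807 mean was 0.48 ± 0.24 log2 above control (SE), a value without a test at a level where little RNA is likely, and all groups overlapped. The combination mean was 0.10 above the hydroxychloroquine mean (limma adjusted p = 0.967).

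Tph1 encodes tryptophan hydroxylase 1, the rate-limiting enzyme of serotonin synthesis outside the nervous system. Its lowest, median and highest signals were 4.81, 5.03 and 6.02 in combination tumours and 3.55, 4.57 and 5.83 in BMS754807 tumours. They were 4.58, 5.13 and 5.85 in hydroxychloroquine tumours and 4.37, 4.71 and 5.37 in control tumours. All 12 tumours given hydroxychloroquine were above the olfactory receptor level, as were all 6 control tumours, and the 2 tumours below it had BMS754807 alone. The margin was narrow, with control tumours 6 and 4 at 4.37 and 4.40 and BMS754807 tumours 1 and 5 at 4.18 and 3.55, against a level of 4.32. No loss of Tph1 is read from this split.

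The combination mean of Tph1 was 0.56 ± 0.29 log2 above the BMS754807 mean (SE, 95% interval -0.045 to 1.16), with 6 of 6 combination tumours above it. The unadjusted limma p was 0.0682 and the adjusted p 0.606, the smallest of the 29 member comparisons tested, and the exact permutation p was 0.16 (n = 6 each). Against control, the combination mean was 0.43 ± 0.29 higher, again with 6 of 6 tumours above the control mean, and the hydroxychloroquine mean was 0.40 ± 0.29 higher (limma adjusted p = 0.944 and 0.979). Neither passed, and the BMS754807 mean was 0.13 lower than control as a value without a test. The size of the difference between combination and BMS754807 depended on single tumours. It was 0.35 without BMS754807 tumour 5 and 0.38 without combination tumour 4. With each array left out in turn it ran from 0.35 to 0.80 and kept its sign.

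Slc6a4 encodes the serotonin transporter of neurons and platelets, which takes serotonin back into the cell. Its lowest, median and highest signals were 2.60, 3.01 and 4.17 in combination tumours and 2.25, 2.79 and 3.82 in BMS754807 tumours. They were 2.53, 2.93 and 3.23 in hydroxychloroquine tumours and 2.38, 2.99 and 3.67 in control tumours. None of the 24 values reached the olfactory receptor level, and the groups overlapped. Of the platelet and megakaryocyte markers, 4 of 6 were above that level, among them Pf4 and Ppbp, both chemokines of platelet granules.

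Maoa encodes monoamine oxidase A, which oxidises serotonin. Its lowest, median and highest signals were 8.68, 9.45 and 9.56 in combination tumours and 8.78, 9.21 and 9.34 in BMS754807 tumours. They were 8.44, 9.04 and 9.38 in hydroxychloroquine tumours and 8.46, 9.25 and 9.45 in control tumours. The combination mean was 0.39 ± 0.18 log2 above the hydroxychloroquine mean (SE, 95% interval 0.011 to 0.76), with 5 of 6 tumours above it. The unadjusted limma p was 0.0439, the adjusted p 0.902 and the exact permutation p 0.0758 (n = 6 each), so it did not pass. The groups overlapped, since combination tumours 4 and 5, at 8.68 and 9.35, lay below hydroxychloroquine tumour 5 at 9.38. The other differences of Maoa lay between -0.20 and 0.23.

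The genes most like each of these in deviations from the group mean were Gbp4, Slco2b1 and Tomm20l for Htr7 (r of 0.75, 0.75 and 0.71) and Rhbdd1, Dr1 and Zc3h10 for Tph1 (0.74, 0.72 and 0.70). For Maoa they were Ogg1, Dazap2 and Kyat1 (0.82, 0.79 and 0.78), and for Slc6a4 Oxct1, Cpq and Exoc2 (0.77, 0.71 and 0.70).

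In hydroxychloroquine against control, 0 of 7 members tested passed the adjusted threshold in limma (background 0% of genes) and 1 had an unadjusted p under 0.05 (background 4.81%). In combination against control it was 0 of 7 by both measures (backgrounds 0% and 5.06%), and in combination against BMS754807 also 0 of 7 by both (0% and 8.61%). In combination against hydroxychloroquine 0 of 8 passed (0%) and 1 of 8 had an unadjusted p under 0.05 (5.39%). The interaction gave 0 of 7 by both measures (0% and 5.05%), with a smallest adjusted p of 0.951.

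Directions were mixed. Members with a higher mean numbered 4 of 8 in BMS754807 against control (median difference 0.095 log2, against 0.0017 over all genes), 5 in hydroxychloroquine against control (0.138, against 0) and 7 in combination against control (0.181, against 0.0067). In combination against BMS754807 4 were higher (0.0458, against -0.0033) and in combination against hydroxychloroquine 5 (0.0683, against 0.0083). Of all 19505 genes, 9780, 9697, 10034, 9611 and 10103 had a higher mean in these 5 comparisons, in the same order. The 3 comparisons with control share the same 6 tumours. Htr1b, chosen as higher with BMS754807 alone, is counted among the 8 members. Nothing is therefore read from the counts and medians of the 2 comparisons that hold BMS754807 alone. In none of the 5 comparisons did the groups fail to overlap for any of the 8 members. Over all genes they failed to overlap, in either direction, for 0.174% in BMS754807 against control, 0.154% in hydroxychloroquine against control, 0.308% in combination against control, 0.651% in combination against BMS754807 and 0.267% in combination against hydroxychloroquine.

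**Figure D4:**
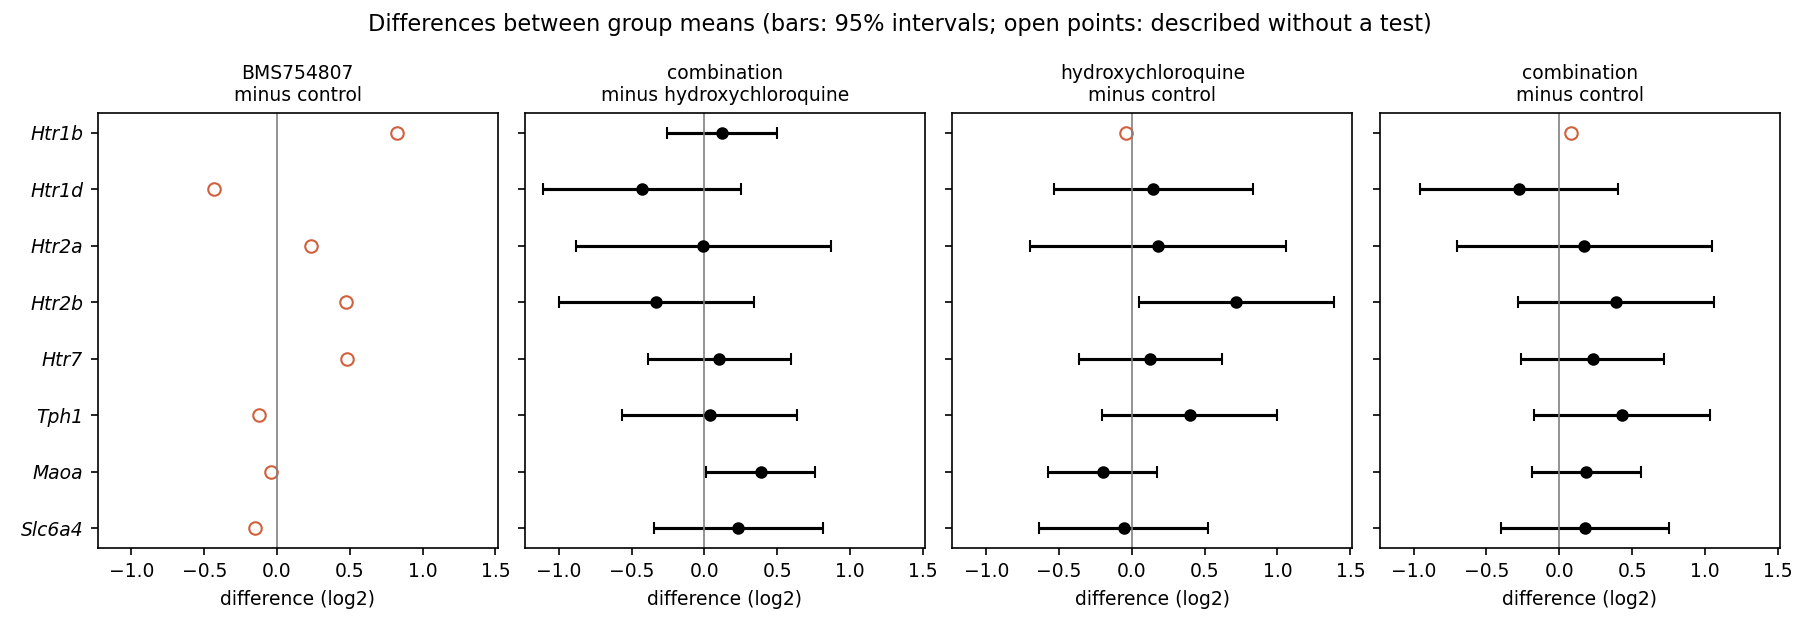
Differences between group means (log2) for the 8 genes in 4 comparisons, where bars are 95% intervals from limma and open points are values described without a test. The Htr1b point for BMS754807 minus control is at 0.82, and the Htr1b interval for combination minus hydroxychloroquine runs from -0.26 to 0.50.

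The wider pathway was described by 5 lists with 54 measured genes, of which 35 were above the olfactory receptor level. In limma, 0 of 54 passed the adjusted threshold in any comparison. An unadjusted p under 0.05 was found for 1 gene in hydroxychloroquine against control (4.81% of all genes), 5 in combination against control (5.06%) and 5 in combination against BMS754807 (8.61%). It was found for 2 in combination against hydroxychloroquine (5.39%), 2 in BMS754807 against control (5.88%) and 1 in the interaction (5.05%). Of 9 other serotonin receptor genes, 1, Htr4, was above the olfactory receptor level.

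Ddc, the aromatic amino acid decarboxylase of the second synthetic step, had lower means in both groups given hydroxychloroquine than in control tumours. Its signals ran between 8.40 and 9.23 in combination tumours, between 8.05 and 9.42 in hydroxychloroquine tumours and between 9.10 and 10.46 in control tumours. The mean difference from control was -0.72 ± 0.29 log2 in combination (SE, limma adjusted p = 0.944) and -0.71 ± 0.29 in hydroxychloroquine (limma adjusted p = 0.979), and neither passed. The BMS754807 mean was 9.56, against 9.68 in control tumours. Tph2, the neuronal hydroxylase, and Slc18a1, a vesicular transporter, were below the olfactory receptor level. Maob, the other monoamine oxidase, had means of 5.42, 5.82, 5.69 and 5.51 in combination, BMS754807, hydroxychloroquine and control tumours, and Slc18a2, the other vesicular transporter, had 5.41, 5.55, 5.56 and 5.63.

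Tgm2, a transglutaminase that can attach serotonin to proteins, had its lowest mean in BMS754807 tumours. It averaged 11.91 ± 0.51 in combination, 10.93 ± 0.53 in BMS754807, 11.81 ± 0.54 in hydroxychloroquine and 11.82 ± 0.41 in control tumours (SD, n = 6 each). Its combination mean was 0.98 ± 0.28 log2 above the BMS754807 mean (SE, limma adjusted p = 0.301), short of the threshold.

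Cofactor, uptake and signalling genes also stayed short of the threshold. Qdpr, which regenerates the cofactor of tryptophan hydroxylase, was 0.35 ± 0.15 higher in combination than in control tumours (SE, limma adjusted p = 0.944). Against BMS754807 it was 0.34 ± 0.15 higher (adjusted p = 0.5475). Slc7a8, an amino acid transporter, was 0.92 ± 0.42 lower in combination than in control tumours (adjusted p = 0.944). Plcb1, a phospholipase C downstream of Gq, was 0.42 ± 0.13 higher in combination than in BMS754807 tumours (adjusted p = 0.369), while Plcb3 was 0.20 ± 0.096 lower (adjusted p = 0.579). Against control, Plcb1 was 0.33 ± 0.13 higher in combination tumours (adjusted p = 0.944). Gna11, an alpha subunit of the Gq family, was 0.19 higher in BMS754807 than in control tumours, a value without a test. Adcy7, an adenylyl cyclase, was lower in combination tumours than in each other group. The difference was 0.58 ± 0.25 from hydroxychloroquine, 0.61 ± 0.25 from control and 0.52 ± 0.25 from BMS754807 tumours (adjusted p = 0.902, 0.944 and 0.57). S100a10, known to bind the Htr1b protein, had signals of 16.05 to 16.20 in combination tumours and 15.88 to 16.01 in hydroxychloroquine tumours. These groups did not overlap, as was so for 0.267% of all genes in this comparison, and the difference was 0.17 ± 0.083 log2 (SE, limma adjusted p = 0.902).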

How the data were processed

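The deposited table holds log2 signal of 22206 probe sets on 24 Clariom S arrays made by the authors from 250 ng RNA each, using Transcriptome Analysis Console 4.0 per the submitters' processing notes. The log base was inferred from the values (1.45 to 19), and background correction and normalization are not given in the sources used here. Symbols came from the platform annotation. The probe set with the highest mean was kept per gene, leaving 19505 genes. One limma 3.58.1 model in R 4.3.3 had a coefficient per group and 20 residual degrees of freedom, with Benjamini-Hochberg adjustment over all genes, two-sided, threshold 0.05. The procedure was tested on simulated data. The labels do not say whether replicate numbers pair the tumours, and the main model did not pair them. Deviations of same-numbered tumours had a median correlation of -0.0075, against 0.0042 for other numbers. They ran from -0.251 to 0.305, with 9 of 36 pairs over 0.1, so a pairing of some tumours is not excluded. The members and lists were chosen with earlier results of these data known. Genes named beyond the 8 members were those of the lists with an unadjusted p under 0.05, at most 3 per list and comparison, 6 fixed partners, and the 3 (Htr1b: 5) most alike. Alternatives covered normalization, filters, array weights, the replicate block, covariates and each array left out.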

Additional observations from a re-analysis of the deposited data

Results flagged for a closer look

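Over 88 groups of 6 tumours, 4 for each of 22 genes (the 8 members and 14 genes of the pathway lists), 9 held a tumour far from the other 5, by a gap to its nearest neighbour, divided by the group's range, above Dixon's 95% critical value. Chance gives about 1 in 20 groups. In combination tumours, Htr2a in tumour 6 was 5.49, below the other 5 at 6.83 to 7.24. Tph1 in combination tumour 4 was 6.02, above the others at 4.81 to 5.13. Maoa in combination tumour 4 was 8.68, below the others at 9.35 to 9.56, so the same tumour stood apart for both enzymes. Maoa in control tumour 5, one of the muscle-rich tumours, was 8.46, below the others at 9.17 to 9.45. Slc7a8 in BMS754807 tumour 6, also muscle-rich, was 9.75, above the others at 7.65 to 8.30. Plcb1 in hydroxychloroquine tumour 4, the tumour with the highest Htr2b, was 11.95, below the others at 12.49 to 12.70. Tph2 was 4.91 in combination tumour 1, against 3.71 to 4.00 in the others, and 5.10 in control tumour 2, against 3.56 to 4.09, with a mean over all tumours below the olfactory receptor level. Maob in combination tumour 2 was 4.92, below the others at 5.41 to 5.58. Their causes were not tested.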

How the results depend on the processing

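The test of Htr1b in combination against hydroxychloroquine kept its direction in all 37 settings, with 0.045 to 0.18 log2 when 1 array was left out and adjusted p between 0.902 and 1.0. No tested member passed in any of 1065 values (adjusted p 0.417 to 1.0). For Htr1b in combination against hydroxychloroquine, leaving out a control or BMS754807 array could change only the error, so the direction was fixed in those settings. Under the replicate block Htr1b in that comparison was 0.12 ± 0.19, and the block called 1 gene in hydroxychloroquine against control, Stk26, against 0, and changed no other count of calls. Leaving out 1 array gave 0 to 1 genes in BMS754807 against control (Htr1b, without BMS754807 tumour 1), 0 to 1 in hydroxychloroquine against control (Stk26, without BMS754807 tumour 6) and 0 to 1 in combination against BMS754807 (Htr1b without BMS754807 tumour 1, Gemin7 without combination tumour 6). The rule used the Htr1b values, so nothing is read from its calls, which also left out the 1 BMS754807 tumour that lay among the other groups. The other genes were named after their values were seen. With the smooth muscle and pericyte score as a covariate 10 genes were called in combination against BMS754807, none of them a member, and with the same score without Des, chosen after seeing the data, 1 gene was (Bcam). The cause was not tested.

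Small differences turned sign. With the smooth muscle and pericyte score as covariate, Htr2a was -0.32 in hydroxychloroquine against control, -0.12 in combination against control and 0.20 in combination against hydroxychloroquine. Without Des in that score these were -0.23, -0.046 and 0.18, and Tph1 was -0.010 in combination against hydroxychloroquine. With the fibroblast score, chosen after seeing the data as was the endothelial score, Htr2a was -0.099 in hydroxychloroquine against control, 0.25 in combination against BMS754807 and 0.35 in combination against hydroxychloroquine, Htr2b was 0.13 in combination against BMS754807 and Tph1 was -0.11 in combination against hydroxychloroquine. With the endothelial score, Htr2a was 0.37 in combination against BMS754807 and 0.28 in combination against hydroxychloroquine, Htr2b was 0.20 in combination against BMS754807 and Tph1 was -0.062 in combination against hydroxychloroquine. Htr2a in combination against hydroxychloroquine was 0.038 after quantile normalization, 0.025 after centring on the median and 0.023 with array weights. Without the 5 muscle-rich tumours, Htr1d was 0.030 and Slc6a4 -0.038 in combination against control, and Htr2b was 0.054 in combination against BMS754807.

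Leaving out 1 array turned other signs. Htr1d ran from -0.0047 to 0.34 in hydroxychloroquine against control and from -0.0070 to 0.32 in combination against BMS754807. Htr2a ran from -0.049 to 0.56 in hydroxychloroquine against control, from -0.035 to 0.55 in combination against control, from -0.23 to 0.20 in combination against BMS754807 and from -0.21 to 0.26 in combination against hydroxychloroquine. Htr2b ran from -0.22 to 0.082 in combination against BMS754807, Htr7 from -0.033 to 0.22 and Tph1 from -0.14 to 0.18 in combination against hydroxychloroquine. Slc6a4 ran from -0.18 to 0.077 in hydroxychloroquine against control and from -0.022 to 0.31 in combination against control. Of values described without a test, Htr1b ran from -0.10 to 0.036 in hydroxychloroquine against control, and in BMS754807 against control Tph1 ran from -0.37 to 0.085 and Maoa from -0.18 to 0.022. Causes of these sign changes were not tested. Htr7 and Slc6a4 have no value with dim genes left out. Signal near the olfactory receptor level limits Htr7, Slc6a4, Htr1d and Tph1.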
